A study of Homo sapiens with 12 samples.

Results

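The SLC25 family is the set of membrane carriers that move metabolites, nucleotides, cofactors and ions across the inner membrane of mitochondria. Members were taken by symbol, as every gene whose name is SLC25A followed by digits, and 42 of the 16020 genes in the deposited count table met this rule. RNA was sequenced from AU565, a human breast carcinoma line in which the receptor gene ERBB2 is amplified. Wild-type cells were grown in 4 formats, with 3 libraries each: monolayer, small spheroid and large spheroid (both labelled as liquid overlay) and capsule. Every library, the monolayer ones included, carries the same treatment label, trastuzumab followed by 5% matrigel and RNA taken after 96 h. No library without the antibody was analysed here, so the comparisons are between formats, in cells that had all met the antibody. Other features of the libraries that go with format are given below. The labels do not say whether replicates were separate cultures, so the p-values speak only of the spread among libraries, which could be technical.

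Carriers of this family share a fold of tandem repeats, are encoded in the nucleus and are imported through the TOM complex of the outer membrane and the TIM22 route of the inner membrane. The ADP/ATP carriers export the ATP made by oxidative phosphorylation, and the phosphate carrier brings in the phosphate for it. Others export citrate for fatty acid synthesis, shuttle reducing equivalents as malate, glutamate and aspartate, or import glutathione, iron, folate and nucleotides. In tumour cells the family is studied because these exchanges link the mitochondrion to growth and redox balance.

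The stretches upstream of 4 members are shown because each of these genes had its highest level in a different format. This held with and without the correction for GC content and transcript length described below. They are SLC25A23 (highest in small spheroid, chr19:6459793-6460042, minus strand), SLC25A36 (large spheroid, chr3:140941586-140941829, plus strand), SLC25A12 (capsule, chr2:171894253-171894494, minus strand) and SLC25A13 (monolayer, chr7:96322148-96322348, minus strand). The sequences are from RefSeq on assembly GRCh38.p14, run 5′ to 3′ towards the gene's start, and leave out transcribed bases. Capitals mark matches on either strand to the GC box GGGCGG or to ACGTG, the core of the hypoxia response element. A CACGTG holds ACGTG on both strands, so the matches overlap there.
SLC25A23: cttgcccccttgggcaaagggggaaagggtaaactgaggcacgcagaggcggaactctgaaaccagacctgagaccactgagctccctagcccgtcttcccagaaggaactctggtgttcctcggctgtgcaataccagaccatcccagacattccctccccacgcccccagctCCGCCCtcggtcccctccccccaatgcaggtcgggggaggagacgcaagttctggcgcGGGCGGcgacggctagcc
SLC25A36: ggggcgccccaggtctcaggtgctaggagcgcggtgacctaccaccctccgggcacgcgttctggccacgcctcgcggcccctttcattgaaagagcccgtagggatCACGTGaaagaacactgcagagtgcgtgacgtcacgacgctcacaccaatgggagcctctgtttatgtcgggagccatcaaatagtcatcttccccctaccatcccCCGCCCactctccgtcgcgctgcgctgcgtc
SLC25A12: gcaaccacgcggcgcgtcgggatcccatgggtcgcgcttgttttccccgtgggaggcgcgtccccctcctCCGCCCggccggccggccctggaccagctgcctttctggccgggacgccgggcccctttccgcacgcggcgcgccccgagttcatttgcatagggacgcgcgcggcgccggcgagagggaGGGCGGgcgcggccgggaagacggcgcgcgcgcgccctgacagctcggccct
SLC25A13: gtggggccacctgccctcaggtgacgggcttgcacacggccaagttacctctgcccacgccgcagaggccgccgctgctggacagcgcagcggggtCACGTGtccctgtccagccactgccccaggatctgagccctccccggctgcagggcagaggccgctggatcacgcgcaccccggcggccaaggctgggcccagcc
All 4 are rich in G and C, at 64.4%, 63.1%, 77.3% and 73.1%. SLC25A23 and SLC25A12 hold 2 GC boxes each and no ACGTG, SLC25A36 holds 1 GC box and a CACGTG, and SLC25A13 holds a CACGTG and no GC box. Over 250 bases upstream, a GC box stood in 26 of the 36 members with an entry (72.22%) and in 42.31% of all 27305 genes with one. ACGTG stood in 10 members (27.78%) against 18.68% of all genes, and the palindrome of the factor NRF1 in 0 members against 1.13%. The median GC content of these windows was 66.4% for the members and 58.0% for all genes. A match is a string of letters and no evidence of binding.

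Library totals ran from 13971346 to 24729250 counts, and the 42 carriers took between 0.322% and 0.4434% of them. The summed level of 8 luminal breast epithelial markers was high in every library, from 14121 to 23821 CPM (counts scaled to library size, with the TMM adjustment for the make-up of each library). Capsule 1 stood apart from capsule 2 and 3, at a chi-square per gene of 39.13 and 34.56 where those differed by 2.993 and the other formats' pairs by 2.797 to 12.57. The column of capsule 1 spells the format unlike its title and was assigned by format and number. Of the 12 cardiac muscle markers listed, 8 were in the table, and their sum was 204.45 and 201.93 CPM in monolayer 1 and 2 and 70.967 and 55.025 CPM in large spheroid 1 and 2, against 2.7086 to 8.6432 CPM in the other 8 libraries, in 4 of which the cardiac myosin MYH6 was at 0. Melanocyte markers, 4 of 5 in the table, summed to 45.45 to 99.481 CPM in monolayer, 14.831 to 19.644 CPM in large spheroid and 1.4537 to 3.9009 CPM in the other libraries, where TYRP1 was at 0 in 3. Mesenchymal markers, 4 of 6 in the table, summed to 20.012 to 46.261 CPM over the 12 libraries and did not move as one. POSTN was at 10.7 to 28.6 CPM in monolayer and 12.8 to 21.8 in large spheroid but at 0 in 5 of the other 6 libraries, while COL1A1 was at 23.9 to 26.1 CPM in small spheroid and 16.9 to 18.5 in capsule against 4.20 to 8.73 in the rest. The part of these cell types in the carriers' results was not tested beyond the fit without the cardiac libraries. Titles of the monolayer and large spheroid libraries hold a tag, UP, that those of small spheroid and capsule lack, and what it marks cannot be told apart from the formats. In bulk RNA, a change in the share of cells of a type and a change in RNA per cell cannot be told apart.

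All 42 carriers were expressed highly enough to be tested, and 39 of them differed among the 4 formats (edgeR quasi-likelihood test, adjusted p below 0.05), in a table where 90% of the 15175 genes tested did. Apart from SLC25A38, every member passed in at least 1 of the 6 pairwise comparisons. The counts are close to the background in most of them, and members moved both ways. In small spheroid against monolayer 14 members rose and 15 fell (69% of the family, 72.3% of all genes, with 37% higher and 35.3% lower). In large spheroid against monolayer 11 rose and 15 fell (61.9%, all genes 57.1%, with 28.7% higher and 28.4% lower), and in capsule against monolayer 14 rose and 15 fell (69%, all genes 66%, with 34.5% and 31.5%). Large spheroid against small spheroid gave 12 higher and 16 lower (66.7%, all genes 66.3%, with 32.9% and 33.4%), capsule against small spheroid 10 higher and 12 lower (52.4%, all genes 52%, with 27% and 25%), and capsule against large spheroid 13 higher and 10 lower (54.8%, all genes 62.7%, with 32.1% and 30.6%). Without the 4 libraries with cardiac reads, 1 library each of monolayer and large spheroid is left, and their spread is taken to be that of the 3 small spheroid and 3 capsule libraries. Called members were then 11 in large spheroid against monolayer, now 1 library against 1 (26.2%, all genes 22.7%), 19 in capsule against monolayer (45.2%, all genes 45%) and 15 in capsule against large spheroid (35.7%, all genes 43.4%). With so few libraries a call lost in this fit does not show that the difference is absent. Median log2 fold changes of the family lay between -0.148 and 0.141, and those of all genes between -0.005 and 0.040. Under library totals in place of TMM, the share of called genes that were higher in capsule than in small spheroid was 62.9% in place of 51.9%, and the median of all genes in that comparison moved from 0.016 to 0.116. The medians of small spheroid against monolayer and of large against small spheroid moved by more than 0.1 as well, to -0.145 and 0.107.

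**Figure D1:**
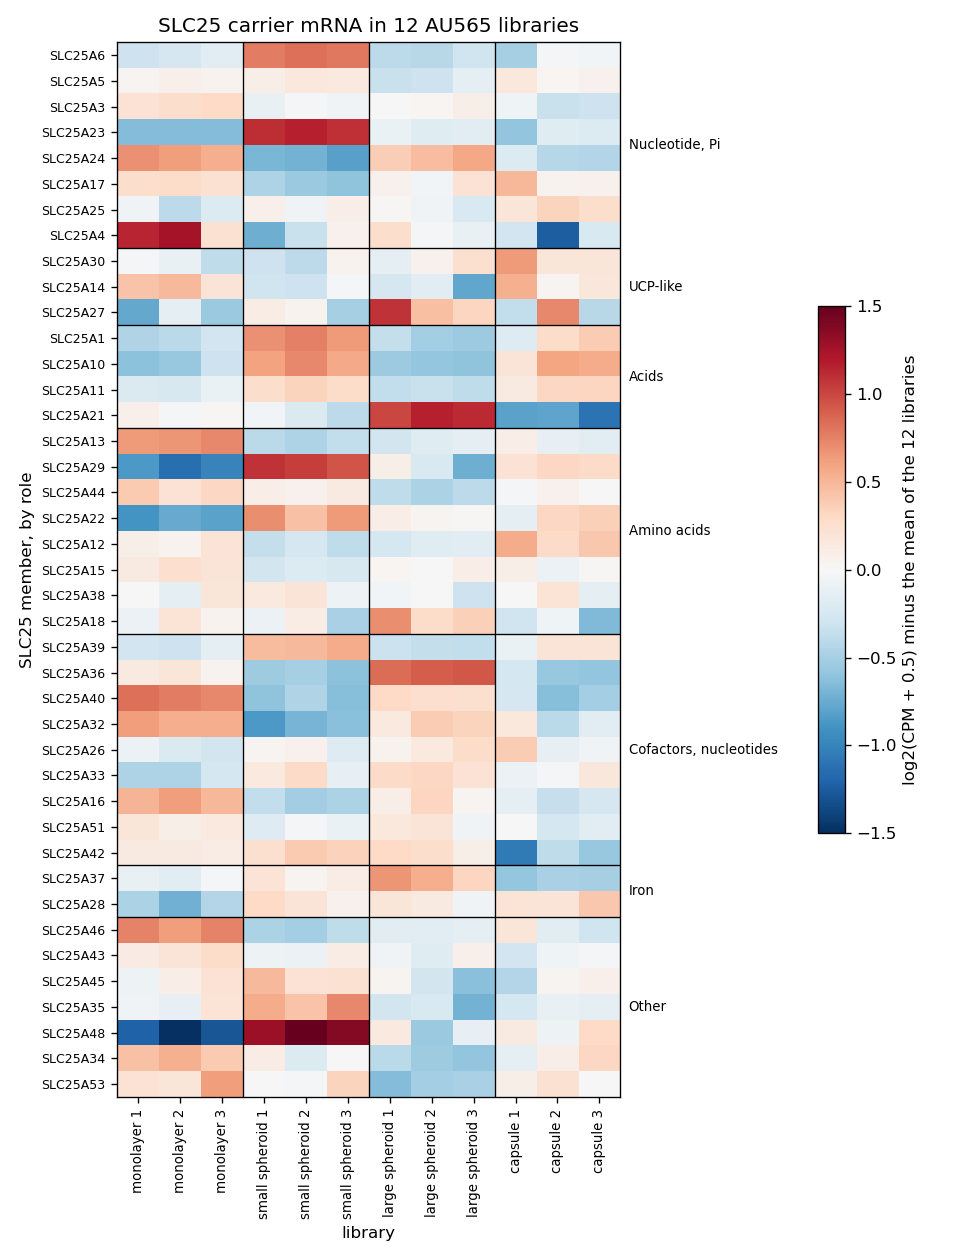
Heat map of 41 of the 42 carriers (rows, grouped by role and ordered by mean level) in the 12 libraries (columns). Colour is log2(CPM + 0.5) minus the gene's mean over the libraries, limited to 1.5 either way. Red and blue stand side by side within most roles, and SLC25A23, SLC25A29 and SLC25A48 are deepest red in the 3 small spheroid libraries.

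In most comparisons the direction in which carriers moved tended to go with the GC content of their transcripts, least so in large spheroid against monolayer. Across the 42 members the Spearman correlation of the log2 fold change with transcript GC content was 0.754 in small spheroid against monolayer and -0.784 in large against small spheroid, and across 14637 genes it was 0.679 and -0.663. It was 0.538 in capsule against monolayer, -0.593 in capsule against small spheroid, 0.449 in capsule against large spheroid and 0.225 in large spheroid against monolayer, with 0.437, -0.508, 0.289 and 0.193 over all genes. Points share libraries and are not independent, so these values only describe. Large spheroid against monolayer and capsule against small spheroid are the 2 comparisons between formats alike in the UP tag. The family spans 34.19% (SLC25A40) to 65.87% (SLC25A29) GC, with a median of 49.98% close to the 49.72% of all genes. Most results are therefore given also from a second fit, in which an offset removes each library's trend with GC content and transcript length, called the GC offset below. It takes out any difference that follows GC content or transcript length, whatever its source, and the source was not tested. Nor were the parts of GC content and length in its effect told apart. Under it, 17 of 29 calls held with their direction in small spheroid against monolayer and 4 turned round, 24 of 26 held in large spheroid against monolayer, and 25 of 29 held and 2 turned in capsule against monolayer. In large against small spheroid 19 of 28 held and 3 turned, in capsule against small spheroid 11 of 22 held, and in capsule against large spheroid 19 of 23 held. With the offset, 26, 32, 34, 27, 19 and 26 members were called in these 6 comparisons, in the order just given, where 60.7%, 62.1%, 63.8%, 50.9%, 46.8% and 64.7% of all genes were. Against monolayer more of them were lower than higher. In small spheroid 11 were higher and 15 lower (all genes 32.4% higher and 28.2% lower), in large spheroid 12 and 20 (32% and 30.1%) and in capsule 12 and 22 (35.4% and 28.4%). The family's median log2 fold changes were -0.09, -0.19 and -0.22 there, and those of all genes 0.015, 0.009 and 0.048. In large against small spheroid 11 were higher and 16 lower (23.3% and 27.5%), in capsule against small spheroid 8 and 11 (24.9% and 21.9%) and in capsule against large spheroid 14 and 12 (34.5% and 30.2%).

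**Figure D2:**
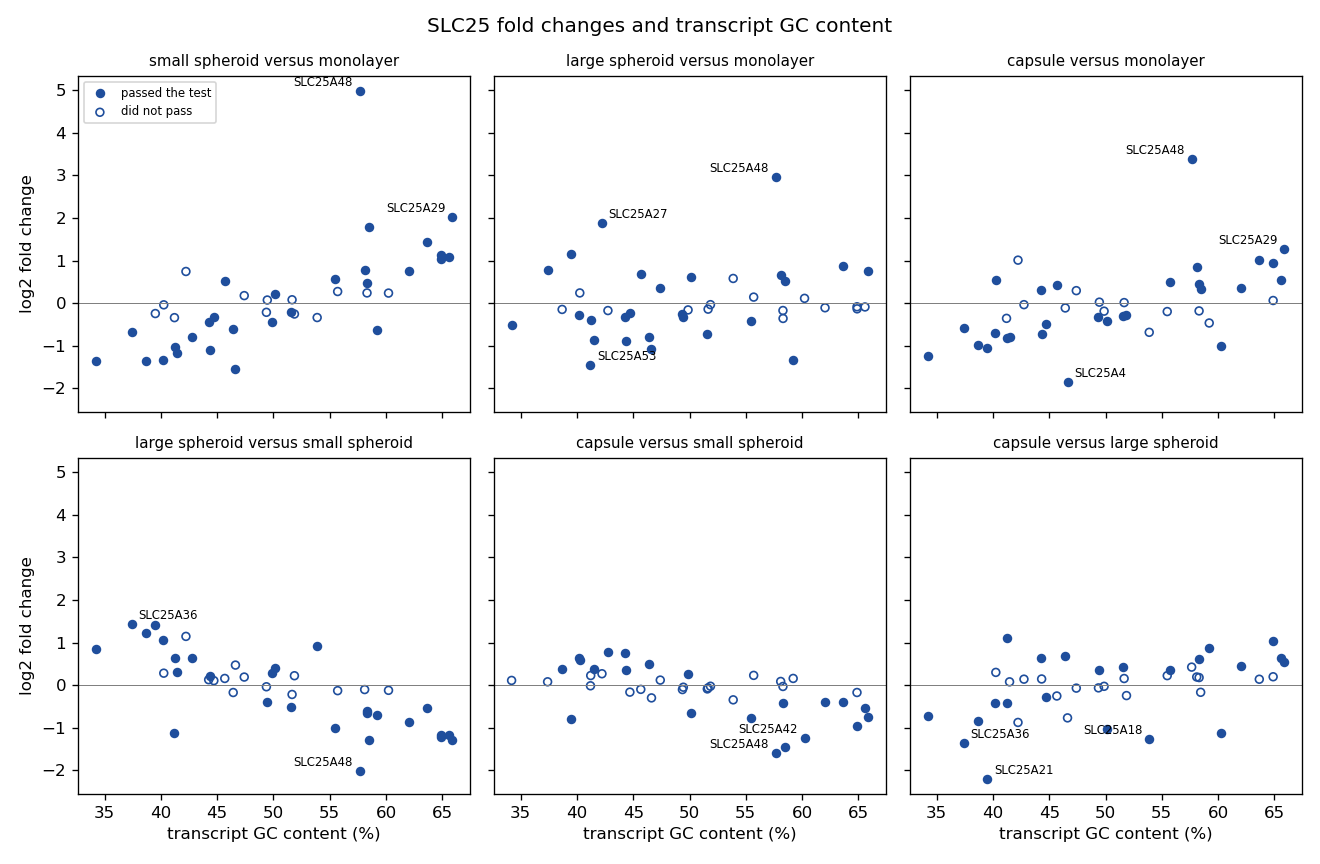
Log2 fold change of 41 of the 42 carriers (vertical axis) against the GC content of its transcript in percent (horizontal axis), 1 panel per comparison. Filled points passed the test and open points did not. The cloud slopes up in small spheroid against monolayer (Spearman 0.754 over all 42) and down in large against small spheroid (-0.784), and is nearly flat in large spheroid against monolayer (0.225).

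Most carrier RNA came from the ADP/ATP and phosphate carriers. Per kilobase of transcript, the mean level over the 12 libraries was 536 CPM for SLC25A6, 461 CPM for SLC25A5 and 257 CPM for SLC25A3, followed by the citrate carrier SLC25A1 at 147 CPM, the glutathione carrier SLC25A39 at 76.8 CPM and the dicarboxylate carrier SLC25A10 at 58.0 CPM. The third ADP/ATP carrier of the table, SLC25A4, the form of heart and muscle, stood at 0.429 CPM per kilobase. The 3 ADP/ATP carrier genes are paralogs with many processed copies in the genome. SLC25A6 lies in the region shared by the X and Y chromosomes (X, 1386152 to 1392113). The counting could thus split reads among copies. Their transcripts differ in GC content, at 46.62% for SLC25A4, 49.45% for SLC25A5 and 64.89% for SLC25A6.

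SLC25A6 was at 840, 877 and 935 CPM in monolayer, 1768, 1848 and 1802 in small spheroid, 791, 780 and 847 in large spheroid and 735, 1020 and 1013 in capsule. Its small spheroid libraries stand far above all others, and capsule 1 lies below the monolayer libraries where capsule 2 and 3 lie above them. The rise from monolayer to small spheroid was 1.03 ± 0.10 on the log2 scale (SE, adjusted p = 1.0e-07), but the transcript has 64.89% GC and the value was -0.15 (adjusted p = 0.084) with the GC offset. SLC25A6 was also lower in large than in small spheroid (-1.16 ± 0.10, offset -0.26) and in capsule than in small spheroid (-0.97 ± 0.10, offset -0.50). Capsule against monolayer did not pass at 0.06 ± 0.10, passed at 0.20 without capsule 1 (adjusted p = 0.00654) and was -0.65 (adjusted p = 3.7e-07) with the offset.

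SLC25A5, the ADP/ATP carrier of dividing cells (X, 119468444 to 119471396, overlapped by its antisense gene), was lowest in large spheroids. It was at 602, 613 and 608 CPM in monolayer, 620, 653 and 645 in small spheroid, 462, 469 and 527 in large spheroid and 649, 594 and 609 in capsule. The 3 large spheroid libraries lie below the other 9. It fell by 0.32 ± 0.07 against monolayer (adjusted p = 0.001, offset -0.41) and by 0.40 ± 0.07 against small spheroid (offset -0.36), and was 0.35 ± 0.07 higher in capsule than in large spheroid (offset 0.21). These 3 calls were lost without the 4 libraries that held cardiac reads, at -0.18, -0.23 and 0.18. SLC25A3, the phosphate carrier, was highest in monolayer, at 496, 513 and 525 CPM against 395, 418 and 411 in small spheroid, 427, 436 and 453 in large spheroid and 408, 338 and 345 in capsule. No other library reached the lowest monolayer value. Its drop in capsule was 0.49 ± 0.08 (adjusted p = 3.2e-05) and the same with the offset, while the drop in small spheroid, 0.33 ± 0.08, came to -0.03 with it.

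SLC25A4 gave few reads, 44 to 120 per library in monolayer and 6 to 36 elsewhere. Its CPM was 4.26, 4.62 and 2.02 in monolayer, 0.80, 1.21 and 1.76 in small spheroid, 2.09, 1.60 and 1.49 in large spheroid and 1.26, 0.413 and 1.34 in capsule. The highest 2 values are those of monolayer 1 and 2, the libraries with the most cardiac marker reads. SLC25A4 was lower than in monolayer in small spheroid (-1.54 ± 0.38), large spheroid (-1.07 ± 0.34) and capsule (-1.84 ± 0.38), all called with the offset too (-1.20, -1.01 and -1.56), and the large spheroid call was lost without monolayer 1 (-0.95) or monolayer 2 (-0.85). With monolayer 1 and 2 and large spheroid 1 and 2 left out, none of the 3 passed (-0.71, -0.40 and -1.02). What the cardiac reads contributed to the SLC25A4 counts was not tested.

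Of the calcium-regulated carriers that exchange ATP-Mg for phosphate, SLC25A23 and SLC25A24 moved in opposite directions in small spheroid. SLC25A23 was at 30.3, 30.1 and 30.2 CPM in monolayer, 104, 107 and 103 in small spheroid, 44.6, 41.9 and 42.5 in large spheroid and 31.5, 42.0 and 41.3 in capsule. The small spheroid values stand clear above the other 9 libraries. SLC25A23 rose by 1.79 ± 0.10 against monolayer (adjusted p = 1.2e-10) and by 1.30 with the offset, and was lower in large spheroid (-1.28, offset -0.86) and capsule (-1.45, offset -1.11) than in small spheroid. SLC25A24 was at 67.8, 65.0 and 61.7 CPM in monolayer, 25.9, 25.6 and 23.7 in small spheroid, 54.5, 58.0 and 63.0 in large spheroid and 36.3, 31.1 and 30.9 in capsule. Monolayer and large spheroid thus overlap, and small spheroid and capsule lie below both. It fell by 1.37 ± 0.09 in small spheroid and by 0.98 ± 0.09 in capsule against monolayer, and by less with the offset (-0.42 and -0.46, both called). The third carrier of this kind, SLC25A25, was higher in capsule than in monolayer (0.50 ± 0.12, offset 0.46), from 10.4 ± 1.28 to 14.6 ± 0.813 CPM (SD, n = 3), and just missed the threshold without the libraries with cardiac reads (0.46, adjusted p = 0.0524). SLC25A17, which carries coenzyme A and other adenine cofactors in peroxisomes, was lowest in small spheroid, at 19.9 ± 1.06 CPM against 34.8 ± 0.594 in monolayer and 34.0 ± 6.34 in capsule. Small spheroid differed from both, by -0.81 ± 0.12 against monolayer (offset -0.28) and, seen from capsule, by 0.77 ± 0.12 (offset 0.42).

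**Figure D3:**
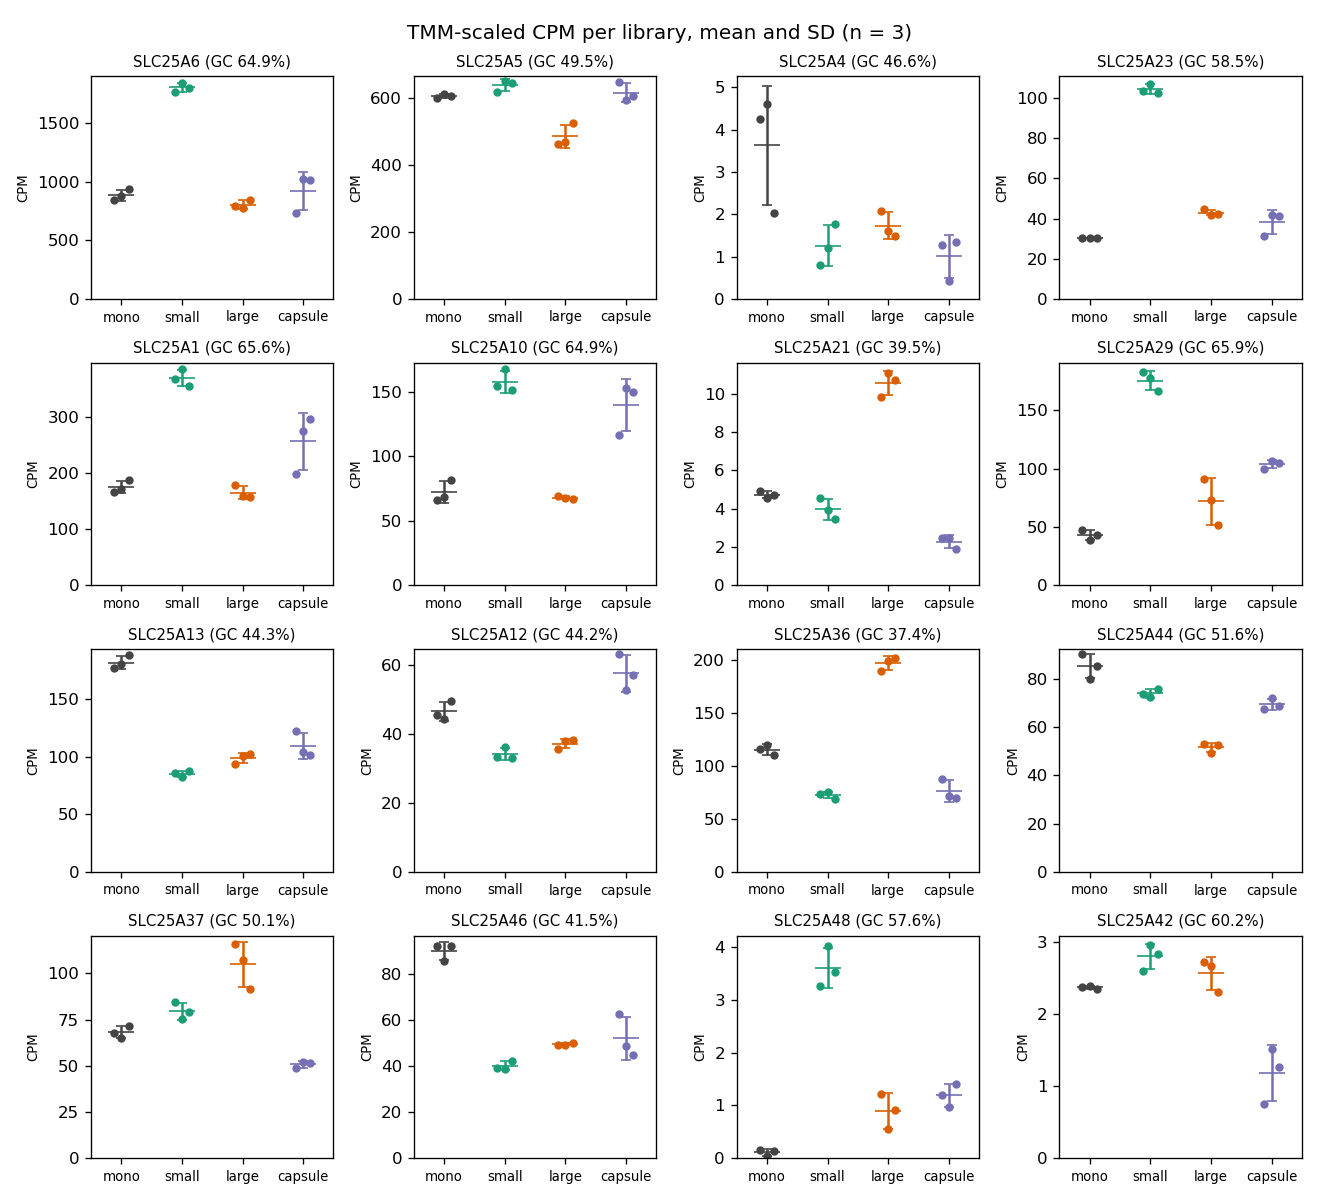
CPM of 16 carriers in each library (points), with the mean and SD of each format (bars, n = 3), each panel from 0 and titled with the transcript's GC content. SLC25A23 and SLC25A36 show a single format standing above the other 3 (small spheroid and large spheroid), SLC25A44 is lowest in large spheroid, SLC25A13 and SLC25A46 are highest in monolayer, and SLC25A42 is lowest in capsule.

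The carriers of citrate, dicarboxylates and oxoglutarate rose in small spheroid and capsule, and all 3 are GC-rich. SLC25A1, the citrate carrier (22, 19175581 to 19178736), was at 167, 173 and 187 CPM in monolayer, 368, 386 and 356 in small spheroid, 179, 160 and 157 in large spheroid and 199, 275 and 297 in capsule. Small spheroid lies above capsule, capsule above the rest, and monolayer and large spheroid overlap. The rise was 1.07 ± 0.11 in small spheroid (adjusted p = 2.1e-07) and 0.55 ± 0.11 in capsule against monolayer, and both turned with the offset, to -0.24 and -0.31 (adjusted p = 0.0025 and 0.00023). The capsule call was also lost without the libraries with cardiac reads (0.43). SLC25A10, which exchanges malate or succinate for phosphate, was at 66.1, 68.5 and 81.8 CPM in monolayer, 154, 167 and 151 in small spheroid, 69.5, 67.9 and 66.6 in large spheroid and 116, 153 and 150 in capsule. No small spheroid or capsule library fell to the level of the other 2 formats. Capsule exceeded monolayer by 0.95 ± 0.10 and large spheroid by 1.04 ± 0.10, and both kept direction and call with the offset (0.21 and 0.58), whereas the rise in small spheroid (1.13 ± 0.10) came to -0.07. SLC25A11, the oxoglutarate-malate carrier, showed the same split, with 60.9 ± 3.22, 85.0 ± 2.43, 53.9 ± 0.748 and 83.2 ± 6.02 CPM in monolayer, small spheroid, large spheroid and capsule. Capsule exceeded large spheroid by 0.62 ± 0.08 (offset 0.39), and the rise in small spheroid against monolayer, 0.48 ± 0.08, turned to -0.13 with the offset. Its rise in capsule against monolayer, 0.45 ± 0.08, did not pass with the offset (0.094, adjusted p = 0.13) or without the libraries with cardiac reads (0.34).

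SLC25A21, the carrier of oxoadipate on the lysine and tryptophan breakdown route, went its own way. It was at 4.92, 4.54 and 4.73 CPM in monolayer, 4.53, 3.94 and 3.44 in small spheroid, 9.85, 11.1 and 10.7 in large spheroid and 2.46, 2.48 and 1.90 in capsule. Large spheroid is above all other libraries and capsule below all others. The difference between them, -2.20 ± 0.16 on the log2 scale (adjusted p = 4.7e-09), was the widest of the family in capsule against large spheroid and came to -2.03 with the offset. Large spheroid exceeded monolayer by 1.16 ± 0.14 (offset 1.35) and capsule fell below it by 1.04 ± 0.17 (offset -0.68). The gene (14, 36677921 to 37172606) overlaps PAX9, and no source used here gives the strand setting of the counting. Overlaps also occur for SLC25A15 (TPTE2P5), SLC25A22 (PANO1), SLC25A26 (LRIG1), SLC25A35 (RANGRF), SLC25A45 (FRMD8) and SLC25A53 (LOC286437), besides those named with other members.

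Among carriers of amino acids, the pair that exchanges aspartate for glutamate in the malate-aspartate shuttle differed. SLC25A13 (7, 96120220 to 96322098) was at 177, 180 and 188 CPM in monolayer, 85.7, 82.3 and 87.6 in small spheroid, 93.7, 100.2 and 102.8 in large spheroid and 122, 104 and 101 in capsule. Every monolayer library is above every other. It fell by 1.09 ± 0.08 in small spheroid (adjusted p = 3.8e-09), 0.88 ± 0.08 in large spheroid and 0.73 ± 0.08 in capsule, and by 0.62, 0.79 and 0.48 with the offset. SLC25A12 (2, 171783405 to 171894244) was at 45.5, 44.4 and 49.6 CPM in monolayer, 33.3, 36.04 and 32.9 in small spheroid, 35.6, 37.8 and 38.2 in large spheroid and 63.0, 52.5 and 56.9 in capsule. Capsule lies above the other formats. It exceeded small spheroid by 0.76 ± 0.09 (offset 0.53), large spheroid by 0.63 ± 0.09 (offset 0.79) and monolayer by 0.31 ± 0.09 (offset 0.55). The last call was lost without the libraries with cardiac reads (0.19). The transcripts of the pair have nearly the same GC content, 44.32% for SLC25A13 and 44.24% for SLC25A12.

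SLC25A29, a carrier of arginine and lysine, had the largest rise from monolayer to small spheroid after the scarcely read SLC25A48, in the fit without the offset. With it SLC25A23 (1.30) and SLC25A33 (0.93) rose by more. It was at 47.2, 38.9 and 42.7 CPM in monolayer, 182, 177 and 166 in small spheroid, 91.2, 73.1 and 51.6 in large spheroid and 99.99, 107 and 105 in capsule. Small spheroid is highest, capsule comes next, and the large spheroid libraries are spread wide. Against monolayer it rose by 2.03 ± 0.14 in small spheroid (adjusted p = 2.0e-09, offset 0.79), 1.28 ± 0.14 in capsule (offset 0.57) and 0.75 ± 0.14 in large spheroid (offset 0.43). The last was lost without the libraries with cardiac reads (0.30). The gene overlaps YY1. SLC25A22, a glutamate carrier, rose in all 3 formats too, from 35.5 ± 1.80 CPM in monolayer to 95.4 ± 9.10 in small spheroid, 65.4 ± 2.01 in large spheroid and 72.0 ± 13.02 in capsule. Its log2 fold changes of 1.43, 0.88 and 1.02 were 0.44, 0.67 and 0.51 with the offset, all called, and its order among the formats changed, since large against small spheroid turned from -0.54 to 0.22.

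SLC25A44, a carrier of branched-chain amino acids, was lowest in large spheroid, at 53.1, 49.5 and 52.5 CPM against 90.4, 80.2 and 85.4 in monolayer, 73.8, 72.5 and 76.0 in small spheroid and 67.7, 72.2 and 68.8 in capsule. Its drop of 0.72 ± 0.07 against monolayer (adjusted p = 3.5e-07) was hardly moved by the offset (-0.74). SLC25A15, the ornithine carrier of the urea cycle, fell in small spheroid by 0.44 ± 0.10 (offset -0.54), from 20.03 ± 0.859 to 14.8 ± 0.373 CPM. SLC25A38, which imports glycine for haem synthesis, ran from 6.03 to 8.87 CPM over the 12 libraries and passed no pairwise test. The second glutamate carrier, SLC25A18, gave 4 to 26 counts per library.

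Both glutathione importers were expressed, and against monolayer they moved in opposite directions in small spheroid and in capsule, but not with the GC offset. SLC25A39 (62.04% GC) was at 98.0, 96.4 and 109 CPM in monolayer, 167, 167 and 176 in small spheroid, 95.8, 93.1 and 92.4 in large spheroid and 111, 137 and 137 in capsule. SLC25A40 (34.19% GC) was at 59.6, 57.3 and 55.2 CPM in monolayer, 21.8, 24.2 and 21.2 in small spheroid, 41.1, 39.7 and 39.6 in large spheroid and 27.999, 21.2 and 23.2 in capsule. Small spheroid is the highest format for SLC25A39, and for SLC25A40 it overlaps capsule below the other formats. In small spheroid against monolayer SLC25A39 rose by 0.75 ± 0.09 and SLC25A40 fell by 1.36 ± 0.10, and with the offset the values were -0.22 (adjusted p = 0.0015) and -0.11 (adjusted p = 0.23). In capsule against monolayer they were 0.34 (0.21 and not passing without the libraries with cardiac reads) and -1.25, and with the offset both were lower, at -0.27 and -0.55.

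Of the pyrimidine nucleotide carriers, SLC25A36 (3, 140941836 to 140980995) peaked in large spheroids. It was at 116, 120 and 110 CPM in monolayer, 73.1, 74.9 and 69.1 in small spheroid, 190, 199 and 202 in large spheroid and 88.0, 71.1 and 69.7 in capsule. The large spheroid libraries stand clear above the monolayer ones, and small spheroid and capsule overlap at the bottom. It rose by 0.77 ± 0.09 against monolayer (adjusted p = 9.9e-07, offset 1.04) and by 1.44 ± 0.09 against small spheroid (offset 0.67), and was 1.37 ± 0.09 lower in capsule than in large spheroid (offset -1.05). The transcript has 37.39% GC, and the value in small spheroid against monolayer turned from -0.67 to 0.37 with the offset. SLC25A33, the other carrier of this kind, was lowest in monolayer, at 9.06, 9.08 and 10.51 CPM against 11.6 to 15.8 in the other libraries. Its rises of 0.53 ± 0.13, 0.68 ± 0.12 and 0.43 ± 0.13 in small spheroid, large spheroid and capsule were 0.93, 0.75 and 0.71 with the offset, and none passed without the libraries with cardiac reads (0.38, 0.52 and 0.27).

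SLC25A42, a coenzyme A carrier, was lowest in capsule, at 0.758, 1.51 and 1.27 CPM against 2.30 to 2.95 in the other 9 libraries. It fell by 1.01 ± 0.25 against monolayer (adjusted p = 0.0017, offset -1.28), 1.25 ± 0.25 against small spheroid (offset -0.87) and 1.12 ± 0.25 against large spheroid (offset -1.27).

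SLC25A32, linked to folate and flavin import, was at 32.1, 30.4 and 30.3 CPM in monolayer, 11.1, 12.5 and 13.2 in small spheroid, 22.8, 27.0 and 26.1 in large spheroid and 23.0, 15.5 and 18.2 in capsule. Small spheroid is the lowest and monolayer the highest format. The drop in small spheroid was 1.34 ± 0.13 (adjusted p = 7.2e-08, offset -0.56) and in capsule 0.71 ± 0.12 (offset -0.36). SLC25A16 was likewise lowest in small spheroid, at 8.60 ± 0.486 CPM against 17.7 ± 0.864 in monolayer, and its log2 fold change of -1.04 ± 0.12 came to -0.24 (adjusted p = 0.061) with the offset. The levels of SLC25A26 (S-adenosylmethionine) and SLC25A51 (NAD+) ran from 14.7 to 23.6 and from 8.46 to 11.8 CPM, and each passed 1 of the 6 comparisons, SLC25A26 in large spheroid (0.36 ± 0.13) and SLC25A51 in capsule (-0.28 ± 0.12), both against monolayer. The SLC25A26 call was lost without large spheroid 2 or 3 or monolayer 2 or 3 (0.31 to 0.37) and without the libraries with cardiac reads (0.59). That of SLC25A51 was lost without monolayer 1, 2 or 3, large spheroid 1 or 2, small spheroid 1 or capsule 2 or 3 (-0.31 to -0.22) and without the libraries with cardiac reads (-0.32). With the offset more comparisons passed. SLC25A26 was higher than in monolayer in small spheroid (0.39), large spheroid (0.37) and capsule (0.41), and SLC25A51 was lower in small spheroid and capsule than in monolayer (-0.48 and -0.47) and than in large spheroid.

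The mitoferrins, which import iron, differed from each other. SLC25A37 was at 67.8, 65.2 and 71.6 CPM in monolayer, 84.3, 75.2 and 79.3 in small spheroid, 116, 107 and 91.6 in large spheroid and 48.7, 52.3 and 51.7 in capsule. Its order was large spheroid, small spheroid, monolayer, capsule, with no overlap between neighbours. Capsule was 1.04 ± 0.09 below large spheroid (adjusted p = 3.4e-08, offset -0.86) and 0.42 ± 0.09 below monolayer (offset -0.22), and large spheroid was 0.62 ± 0.09 above monolayer (offset 0.63, but 0.38 and not passing without the libraries with cardiac reads). SLC25A28 was lowest in monolayer, at 8.73, 7.27 and 8.91 CPM against 11.8 to 16.5 in the other 9 libraries. It rose by 0.77 ± 0.13, 0.66 ± 0.12 and 0.85 ± 0.12 in small spheroid, large spheroid and capsule, and by 0.52 and 0.41 in the last 2 with the offset, where small spheroid (0.10) did not pass. The large spheroid call was lost without the libraries with cardiac reads (0.44).

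SLC25A46, an outer membrane member that takes part in mitochondrial fission and lipid handling, was at 92.5, 85.8 and 92.5 CPM in monolayer, 39.5, 38.7 and 42.4 in small spheroid, 49.4, 49.3 and 50.1 in large spheroid and 62.8, 49.0 and 44.9 in capsule. All 9 libraries of the other formats lie below monolayer. It fell by 1.17 ± 0.10 (adjusted p = 2.4e-08), 0.86 ± 0.10 and 0.79 ± 0.10 in small spheroid, large spheroid and capsule, and by 0.53, 0.73 and 0.55 with the offset. All 3 calls against monolayer held with the offset, as they also did for other members, SLC25A13, SLC25A22, SLC25A29 and SLC25A33 among them. SLC25A46 (5, 110738145 to 110765157) overlaps TMEM232.

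SLC25A48 was all but silent in monolayer, with 3, 1 and 3 counts. It gave 49, 53 and 46 counts in small spheroid, 21, 11 and 16 in large spheroid and 19, 14 and 20 in capsule, or 3.27, 4.01 and 3.52, 1.22, 0.551 and 0.920, and 1.20, 0.963 and 1.41 CPM. Small spheroid lies above large spheroid and capsule, which overlap, and monolayer below all. The fitted rise in small spheroid was 4.98 ± 0.42 (adjusted p = 1.3e-08, offset 4.36), but with so few monolayer reads its size depends on counting error. Large and small spheroid, both with more reads, differed by -2.01 ± 0.31 (offset -1.52). Among other members, SLC25A35 differed by -0.997 ± 0.14 in large against small spheroid (offset -0.67), from 17.2 ± 1.80 to 8.58 ± 1.56 CPM. SLC25A34 and SLC25A53, at 0.747 to 2.23 and 0.406 to 1.70 CPM, were lower in large spheroid than in monolayer (-1.33 ± 0.26 and -1.46 ± 0.32, offset -1.43 and -1.25), the first not passing without the libraries with cardiac reads (-1.36). SLC25A43 ran from 33.1 to 49.0 CPM and was lower in capsule than in monolayer (-0.32 ± 0.10, offset -0.24), and SLC25A45 ran from 9.88 to 21.9 CPM and was lower in large than in small spheroid (-0.60 ± 0.17, not passing at -0.14 with the offset).

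SLC25A14, SLC25A30 and SLC25A27 are relatives of the uncoupling proteins. SLC25A14 was at 11.8 ± 1.27, 7.70 ± 0.947, 6.80 ± 1.57 and 10.8 ± 2.09 CPM in monolayer, small spheroid, large spheroid and capsule, and was lower than in monolayer in small spheroid (-0.61 ± 0.18, offset -0.45) and large spheroid (-0.79 ± 0.17, offset -0.80). The first was lost without the libraries with cardiac reads (-0.44). SLC25A30 was at 24.3, 17.6 and 17.5 CPM in capsule and 11.6 to 18.3 in the other libraries, so that capsule 2 and 3 overlap large spheroid, and it rose in capsule against monolayer (0.54 ± 0.15, offset 0.96). With the offset SLC25A30 was also higher than in monolayer in small spheroid (0.78) and large spheroid (0.43), and capsule against small spheroid did not pass (0.18). SLC25A27 gave 3 to 33 counts per library, and only large spheroid against monolayer passed (1.89 ± 0.52, offset 2.03, but not without the libraries with cardiac reads, at 1.74). Of 5 family genes with other symbols, 4 were in the table. UCP2, the uncoupling protein of many epithelia and immune cells, was at 206 to 274 CPM in capsule against 338 to 580 elsewhere, and it fell by 0.87 ± 0.10 against monolayer (offset -1.23) and by 1.19 ± 0.10 against small spheroid (offset -0.89). MTCH2, an outer membrane insertase, was 0.52 ± 0.09 lower in large spheroid than in monolayer (offset -0.41).

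**Figure D4:**
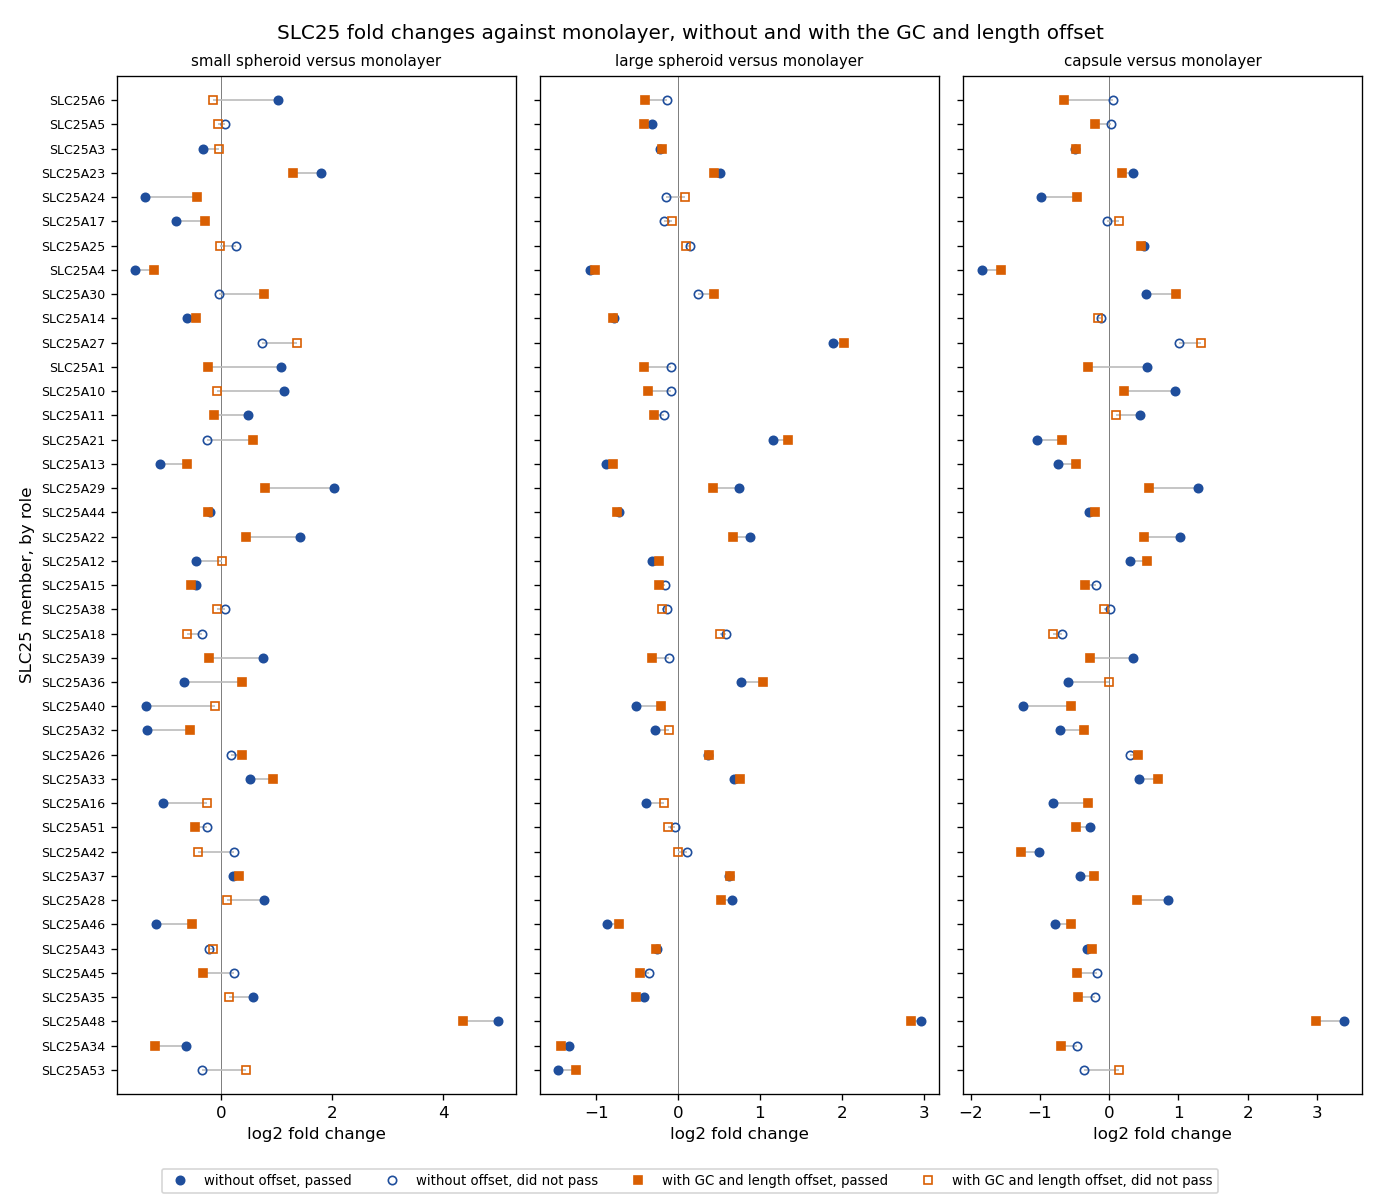
Log2 fold change of 41 of the 42 carriers against monolayer (horizontal axis, 1 panel per format) without the GC and length offset (blue circles) and with it (orange squares), joined by a line. Filled symbols passed the test. Lines are long in small spheroid, where SLC25A1 moves from 1.07 to -0.24, and short in large spheroid.

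The offset changed where members were found highest. By the fitted values, called or not, 16 members were highest in monolayer, 14 in small spheroid, 7 in large spheroid and 5 in capsule. With the GC offset the numbers were 20, 6, 8 and 8. Large spheroid was the lowest format for 13 members without the offset and for 15 with it. All genes were not counted in this way, so these numbers are not read as particular to the carriers. Summed over the family, carrier RNA was at 3449, 3495 and 3630 CPM in monolayer, 4643, 4784 and 4687 in small spheroid, 3197, 3163 and 3273 in large spheroid and 3302, 3559 and 3592 in capsule. Small spheroid stands above the rest, and SLC25A6 alone had a mean of 1806 CPM there against 884 CPM in monolayer. These sums are without the GC offset. With it, in small spheroid against monolayer, SLC25A6 was at -0.15 and did not pass, and the family's median was -0.09.

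Most genes of the machinery that imports these carriers were higher in small spheroid and capsule than in monolayer. Of its 16 listed genes, 11 rose and 4 fell in small spheroid against monolayer, 10 rose and 3 fell in capsule, and 7 rose and 2 fell in large spheroid, with medians of 0.69, 0.87 and 0.16, where the medians of all genes were 0.009, 0.040 and -0.002. Of all genes 72.3%, 66% and 57.1% were called, and 37%, 34.5% and 28.7% were higher. With the GC offset the counts were 12 and 2, 10 and 4, and 8 and 2, with medians of 0.51, 0.73 and 0.14. There 60.7%, 63.8% and 62.1% of all genes were called, with medians of 0.015, 0.048 and 0.009. The shares higher were 32.4%, 35.4% and 32%, and those lower 28.2%, 28.4% and 30.1%. TIMM10, a chaperone of the intermembrane space that escorts carriers, was at 27.2, 30.3 and 32.9 CPM in monolayer, 60.1, 60.6 and 55.3 in small spheroid, 30.1, 29.8 and 33.3 in large spheroid and 97.7, 89.6 and 102.7 in capsule. Its capsule libraries exceed all others, and the rise over monolayer was 1.68 ± 0.09 (adjusted p = 1.6e-10, offset 1.18). TOMM70, the receptor that recognises carrier precursors, went the other way and fell in small spheroid by 1.14 ± 0.08 (offset -0.46), from 192, 197 and 185 to 86.5, 86.5 and 88.7 CPM. Of 15 other mitochondrial transporters, 8 rose and 1 fell in capsule against monolayer, 6 rose and 6 fell in small spheroid, and 4 rose and 6 fell in large spheroid, with medians of 0.21, 0.07 and -0.12. The share called, 60%, 80% and 66.7%, was near the 66%, 72.3% and 57.1% of all genes. With the offset 10 rose and 2 fell in capsule, where 35.4% of all genes were higher and 28.4% lower. In small spheroid 6 rose and 4 fell (all genes 32.4% and 28.2%), and in large spheroid 4 and 6 (32% and 30.1%). The pyruvate carrier subunit MPC1 was 0.95 ± 0.15 lower in large spheroid than in monolayer (offset -0.96), at 46.5, 45.1 and 42.4 against 79.0, 85.1 and 95.2 CPM.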

How the data were processed

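RNA of 12 AU565 libraries was measured as unnormalized read counts per gene, in a table the authors deposited. Reads were counted by featureCounts against hg38, and limma is listed too, per the submitters' processing notes. The alignment files were named for subread, per the file headers. Tool versions, annotation release and strand setting were not given in the sources used. Rows without a symbol (164, 0.0705% of counts) had no part in the choice of members.

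The counts were fitted in R 4.3.3 with edgeR 4.0.16 (TMM, filterByExpr with a minimum count of 10, quasi-likelihood F test, 1 coefficient per format, all 12 libraries), with Benjamini-Hochberg adjustment over 15175 genes per comparison. A gene was called at adjusted p below 0.05. Errors of log2 fold changes are SEs from the F statistic. The GC offset used splines per library on GC content and length of each gene's longest principal GENCODE 29 transcript (15393 rows, 96.09%, all 42 members). Positions and upstream sequences are RefSeq on GRCh38.p14, matched by Entrez identifier (15851 rows). The RefSeq table names 48 such carriers, and SLC25A2, SLC25A20, SLC25A31, SLC25A41, SLC25A47 and SLC25A52 were not analysed here. Both fits were run on simulated data, where the offset was tried only on a GC trend put into the small spheroid libraries. That run cannot show whether the offset is right for the real data.

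Members and lists were chosen with earlier results of these data known. Named were the 3 highest and 3 lowest called members per comparison at a mean of at least 5 CPM, the 4 most abundant, and 21 members set by role (of which SLC25A20 was not analysed). Other members are described too, 1 carrier that enters the counts is not reported here by name or value, and genes of other lists were chosen after their values were seen. Alternatives were RLE factors, library totals, 2 other filters, DESeq2 1.42.0, limma-voom 3.58.1, fits of 2 formats, a replicate block, the GC offset, single libraries left out and, chosen after seeing the data, 4 libraries with cardiac reads left out.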

Additional observations from a re-analysis of the deposited data

How the results depend on the processing

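Of 138 named fold changes, none reversed under RLE factors, library totals, other filters, DESeq2, limma-voom, fits of 2 formats, a replicate block or a library left out, and 132 to 138 kept direction and side of the threshold under each of these but the last. Over the 12 fits with 1 library left out, 36 of 1200 calls were lost, and 8 of 456 results without a call gained one. Members called ranged there from 27 to 32 in small spheroid against monolayer, 21 to 31 in large spheroid against monolayer, 28 to 32 in capsule against monolayer, 23 to 29 in large against small spheroid (8 to 13 of them higher), 19 to 22 in capsule against small spheroid and 22 to 26 in capsule against large spheroid. Leaving out the 4 libraries with cardiac reads lowered the share of all genes called in each comparison named next. The falls in called members are thus not particular to the carriers. Without the 4 libraries with cardiac reads, which leaves fewer libraries, the counts fell from 26 to 11 (11 to 4 higher, 15 to 7 lower) in large spheroid against monolayer, from 29 to 19 (14 to 7 higher) in capsule against monolayer and from 23 to 15 (13 to 8 higher) in capsule against large spheroid, and the higher ones from 12 to 7 in large against small spheroid.

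The replicate numbers were not taken as pairs: deviations of same-numbered libraries correlated between -0.215 and 0.217 over 18 pairs, and 6 of 12 libraries correlated best with their own number. Between monolayer and large spheroid the 3 same-number values were 0.089, 0.154 and 0.217, and both formats hold cardiac reads in libraries 1 and 2. With the replicate block, 136 of the 138 results kept their call, SLC25A15 in capsule against small spheroid (0.25) and SLC25A32 in large spheroid against monolayer (-0.29) did not, and calls over all genes went from 10968 to 10833 in small spheroid against monolayer, and from 7893 to 7576 in capsule against small spheroid.

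The GC offset reversed 23 results, each also with the replicate block added, and the cause was not tested. A result counts as reversed here if its sign changed and either fit called it. Not all were called in both fits, so they are more than the calls said above to have turned. SLC25A12 in small spheroid against monolayer, for example, was not called with the offset. In small spheroid against monolayer SLC25A1 became -0.24 (-0.235 with the block), SLC25A6 -0.15, SLC25A10 -0.074 (-0.071 with the block), SLC25A11 -0.13, SLC25A12 0.024 (0.026 with the block), SLC25A36 0.37 and SLC25A39 -0.22. In capsule against monolayer SLC25A1 became -0.31, SLC25A5 -0.20, SLC25A6 -0.65 and SLC25A39 -0.27. In large against small spheroid SLC25A3 became -0.17, SLC25A12 -0.26, SLC25A13 -0.18, SLC25A22 0.22, SLC25A28 0.42 and SLC25A40 -0.10. In capsule against small spheroid SLC25A10 became 0.28, SLC25A11 0.23, SLC25A22 0.066 (0.065 with the block), SLC25A36 -0.38 and SLC25A40 -0.44, and in capsule against large spheroid SLC25A6 became -0.24. Members below 2 CPM in most libraries, such as SLC25A18, SLC25A27, SLC25A48 and SLC25A53, have too few reads for small differences to be detectable at this depth.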
